A study of Homo sapiens with 33 samples.

Results

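This account follows 54 human genes of the cell division cycle and of DNA replication in THP-1 cells, out of 19775 genes that the arrays named. The genes were listed by symbol and each was read from its brightest probe set that carried no other symbol. All 54 were found. They were divided into 20 genes of DNA replication, 11 genes that control entry into S phase (the G1/S genes) and 23 genes of mitosis. THP-1 is a human line grown from an acute monocytic leukaemia that divides in suspension culture and matures under retinoids. Every well of every group held this 1 line.

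RNA of 33 separate wells was hybridised to 33 Affymetrix arrays of the HG-U133 Plus 2 design. In experiment 1 all wells were harvested at 40 h. It held 6 wells with 0.1% ethanol as vehicle, 5 with 20 nM all-trans retinoic acid (RA, given at the start and again at 16 h), 5 with 5 ng/ml tumor necrosis factor (TNF) for 24 h, and 5 with RA for 40 h and TNF for the last 24 h. The RA time course had 2 wells after 2 h, 2 after 6 h and 3 after 16 h of RA, with 5 vehicle wells that the treatment protocol has harvested at 16 h but whose titles call them controls of 0 h. They are named here by the protocol, and which of the labels is right was not settled. The sources used here do not say whether the wells with TNF alone also received ethanol.

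A cell copies its DNA once per division. Origins are licensed by the origin recognition complex, CDC6 and CDT1, which load the MCM ring, and CDC45 and GINS turn that ring into the moving helicase. E2F factors, held back by the retinoblastoma protein until cyclin D and cyclin E kinases release them, switch on most replication genes ahead of S phase. Mitotic genes follow later in the cycle, many of them through a promoter element called the CHR. Retinoids are known for slowing division of myeloid leukaemia cells while they mature.

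Values are log2 of the signal over the median of the same array, so 0 is the array median and a difference of 1 is a doubling of signal. The arrays fell into 2 runs of record numbers, array set 1 (12 arrays, experiment 1 only) and array set 2 (21 arrays), and each group of experiment 1 had wells in both. Calls were made with limma over all genes of an experiment, at an adjusted p (Benjamini-Hochberg) under 0.05, and errors beside a log2 change are standard errors. Array medians ran from 18.9 to 45.2 signal units, with 22.1 to 24.4 after 2 h of RA and 18.9 to 25.6 after 6 h. A low array median raises every bright gene on this scale, so counts are also given with each array centred on the median of the genes tested. The 10 monocytic markers summed to 14016 to 17337 units in vehicle at 40 h and 20162 to 28454 with RA, while 6 lymphocyte markers summed to 265 to 543 and 268 to 367, 5 erythroid and megakaryocyte markers to 233 to 353 and 227 to 396, and 7 epithelial and fibroblast markers to 159 to 345 and 175 to 354. In RNA from whole wells, fewer cells in a phase and less RNA per cell cannot be told apart.

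Of the 54 genes, 53 passed the brightness filter of experiment 1 and 54 that of the time course. In the 11 vehicle arrays the 20 replication genes had mean signals of 304 to 8131 units and the 23 mitosis genes of 204 to 5391. Levels of different probe sets are not comparable, and these ranges say only that the genes were read well above the array medians. CCND2, a D-type cyclin, was the exception, with 27.7 ± 15.6 units in vehicle (SD, n = 11), close to the array medians. Its values in the vehicle wells at 40 h were -0.13, 0.48, -2.06, -0.79, 0.03 and -2.24, and those of RA plus TNF were -2.73, -0.72, -2.13, 0.68 and -0.12. RA wells gave -2.28, -3.68, -0.61, 0.31 and -0.01, and TNF wells 0.50, -1.89, -0.55, 0.63 and -0.77. The ranges overlapped in all groups, and CCND2 was not tested in experiment 1.

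The start regions are shown because the comparisons below are read separately for replication and mitosis genes, and the letters before the starts of these classes differ. RefSeq windows of 300 bases (build GRCh38.p14, 250 before to 50 after an annotated start) were held for 44 of the 54 genes, and none was used for AURKA, BIRC5, CCND2, CCNE2, CDK2, E2F8, MCM4, MCM5, TPX2 and UBE2C. Both strands were searched for 4 E2F words (TTTCCCGC, TTTCGCGC, TTTGCCGC, TTTGGCGC), for 2 CHR words (TTTGAA and TTCGAA) and for CCAAT. An E2F word was in a window of 11 of 18 replication genes (61.1%), 3 of 7 G1/S genes and 3 of 19 mitosis genes (15.8%), against 3.99% of all 27305 genes and 3.31% of all 35116 windows. A CHR word was in a window of 13 of 19 mitosis genes (68.4%), 2 of 18 replication genes (11.1%) and 0 of 7 G1/S genes, against 19.5% of all genes and 16.4% of all windows. CCAAT was in a window of 13 replication genes, 3 G1/S genes and 17 mitosis genes, against 39.7% of all genes and 34.6% of all windows. Words read on opposite strands can overlap, so 1 stretch may hold more than 1 match. A match is a description of letters and not of a bound factor.

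The 160 bases before the start are printed for 3 genes with an E2F word and 3 with a CHR word, 5′ to 3′ on the strand of the gene, with all words in capitals. MCM6, a subunit of the MCM ring, lies on the minus strand at chr2:135876444-135876603, GINS2, a GINS subunit, on the minus strand at chr16:85688955-85689114, and E2F2, an activating E2F factor, on the minus strand at chr1:23531234-23531393. The B-type cyclin CCNB2 lies on the plus strand at chr15:59104986-59105145, CDC25C, the phosphatase that activates CDK1, on the minus strand at chr5:138331805-138331964, and CENPA, the histone H3 variant of centromeres, on the plus strand at chr2:26785896-26786055.
MCM6: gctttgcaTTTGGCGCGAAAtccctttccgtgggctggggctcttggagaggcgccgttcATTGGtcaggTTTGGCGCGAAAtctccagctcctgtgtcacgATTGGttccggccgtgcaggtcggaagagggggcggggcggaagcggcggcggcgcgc
GINS2: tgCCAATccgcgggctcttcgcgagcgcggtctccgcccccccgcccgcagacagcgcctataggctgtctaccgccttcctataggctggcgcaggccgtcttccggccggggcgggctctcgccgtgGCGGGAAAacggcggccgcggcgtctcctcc
E2F2: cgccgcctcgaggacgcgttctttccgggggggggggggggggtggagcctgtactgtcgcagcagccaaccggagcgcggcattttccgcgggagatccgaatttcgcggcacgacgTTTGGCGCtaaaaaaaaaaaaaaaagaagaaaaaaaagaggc
CCNB2: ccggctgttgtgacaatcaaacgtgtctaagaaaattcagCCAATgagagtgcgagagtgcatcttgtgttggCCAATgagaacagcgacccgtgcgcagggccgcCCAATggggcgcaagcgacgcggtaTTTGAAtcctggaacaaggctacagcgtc
CDC25C: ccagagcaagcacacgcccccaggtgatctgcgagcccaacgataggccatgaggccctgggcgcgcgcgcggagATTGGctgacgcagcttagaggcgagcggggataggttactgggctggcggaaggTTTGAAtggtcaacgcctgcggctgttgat
CENPA: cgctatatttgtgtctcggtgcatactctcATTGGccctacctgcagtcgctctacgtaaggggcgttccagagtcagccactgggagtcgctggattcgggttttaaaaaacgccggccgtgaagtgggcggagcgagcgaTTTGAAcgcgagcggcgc
The E2F words began 152, 148, 90 and 86 bases before the start in MCM6, 31 in GINS2 and 42 in E2F2. Those of MCM6 form 2 overlapping pairs. The CHR word began 29 bases before the start in CCNB2, 30 in CDC25C and 18 in CENPA, with CCAAT on either strand farther upstream in each of the 3. An E2F word of CENPA and a CHR word of MCM6 lie beyond the bases printed.

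**Figure D1:**
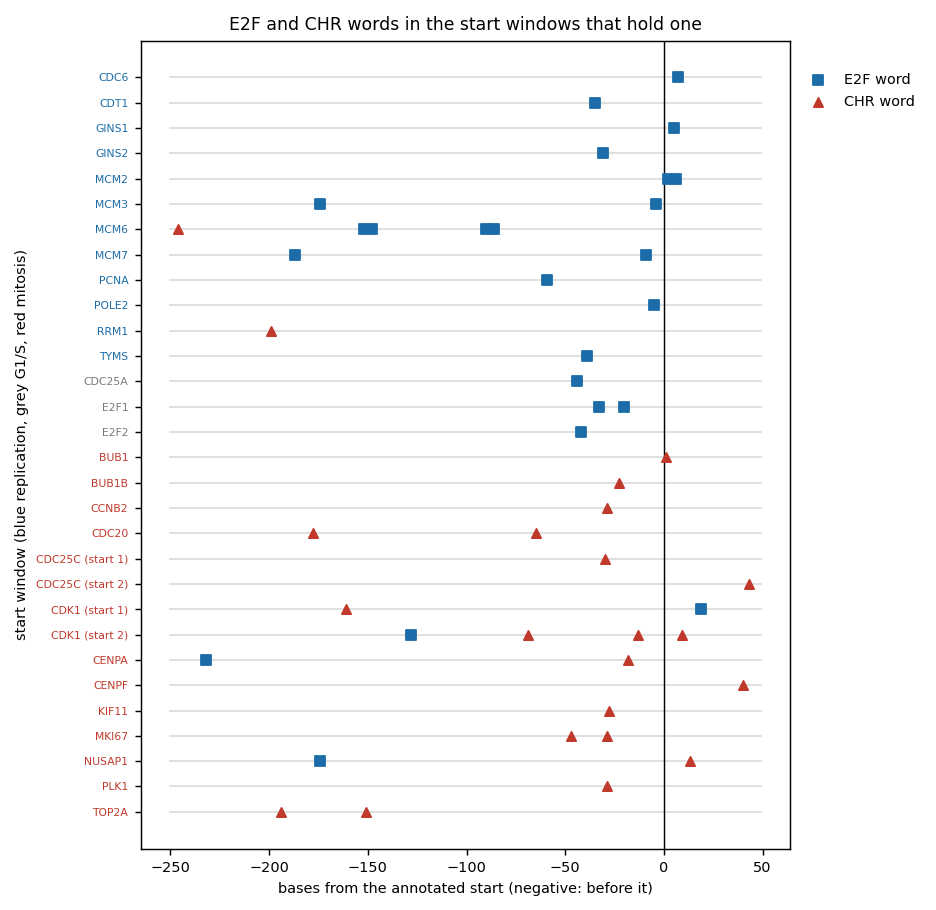
Position of E2F words (squares) and CHR words (triangles) in the start windows that hold at least 1 of them, in bases from the annotated start; each line is 1 window, 12 of replication genes, 3 of G1/S genes and 15 of mitosis genes. E2F words sit mainly in the windows of replication genes and CHR words mainly in those of mitosis genes.

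In the RA time course, the genes stood lowest against vehicle from 16 h on. At 16 h of RA 19 of the 54 genes fell and 0 rose: 12 of the 20 replication genes, 4 of the 11 G1/S genes and 3 of the 23 mitosis genes. These counts are against the 8 vehicle wells of both harvest times in set 2, where 4.66% of all 12503 genes tested fell and 2.36% rose. Against the 5 wells of 16 h alone 8 of the 54 genes fell, where 286 of the 12503 genes fell. The E2F family repressor E2F8 fell most, 2.09-fold, followed by the activator E2F2 at 1.85-fold and MCM4 at 1.81-fold. All 54 genes had a change below 0, and 51 lay below the median of all genes, which was itself at -0.17. The class medians were -0.59 for replication, -0.56 for G1/S and -0.36 for mitosis, or -0.43, -0.39 and -0.19 relative to the median of all genes.

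Among the licensing and helicase genes, MCM2 and MCM4 are given well by well. How many of all genes had no overlap between RA and vehicle wells was not counted. MCM2 stood at 5.36, 5.80 and 5.76 after 16 h of RA, against 6.15, 6.55, 6.33, 6.52 and 5.86 in the vehicle wells at 16 h and 6.13, 6.57 and 6.12 in those at 40 h. All 3 RA wells lay below every vehicle well, the closest being the fifth 16 h vehicle well. The fall of MCM2 was -0.64 ± 0.17 (adjusted p = 0.02), -0.47 relative to all genes.

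MCM4 stood at 4.63, 5.13 and 5.55 with RA, against 5.72, 6.22, 6.33, 5.99 and 5.36 in vehicle at 16 h and 5.80, 6.11 and 6.15 at 40 h. RA well 3 lay above the fifth 16 h vehicle well, so the groups overlapped at 1 well. MCM4 fell by 0.85 ± 0.19 (adjusted p = 0.00494), MCM7 by 0.71 (0.0113), MCM3 by 0.67 (0.0199) and MCM6 by 0.56 (0.027), and GINS2 by 0.68 (0.0167). The 7 genes with the largest adjusted p of the 19, namely ORC1, CDK6, PCNA, POLE2, CDT1, CENPA and MCM5, fell by 0.56 to 0.71 (0.0285 to 0.0497).

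At the replication fork, PCNA, the sliding clamp that holds the polymerases, stood at 5.58, 5.65 and 5.46 after 16 h of RA. Vehicle wells gave 5.90, 6.55, 6.37, 6.27 and 5.79 at 16 h and 5.93, 6.42 and 6.04 at 40 h, all above the RA wells. PCNA fell by 0.60 ± 0.17 (adjusted p = 0.0312). Of the nucleotide enzymes RRM1, the large subunit of ribonucleotide reductase, fell by 0.59 (0.0282).

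Of the G1/S genes, E2F8 stood at 3.21, 3.10 and 3.04 with RA and between 3.56 and 4.54 in the 8 vehicle wells. The RA wells lay apart from all of them, and the fall was -1.06 ± 0.18 (adjusted p = 0.000207). E2F2 fell by 0.89 (0.0137), cyclin E2 (CCNE2), which drives CDK2 into S phase, by 0.76 (0.01), and CDK6, a partner of D-type cyclins, by 0.70 (0.0301). The CDK6 wells overlapped: 5.11, 5.75 and 5.75 with RA against a lowest vehicle well of 5.67.

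The 3 mitosis genes that fell at 16 h were MKI67, CCNA2 and CENPA. MKI67 encodes Ki-67, the coat protein of mitotic chromosomes and a proliferation marker. It stood at 4.58, 4.94 and 4.72 with RA against 5.32, 5.66, 5.46, 5.50 and 5.09 in vehicle at 16 h, and 5.37, 5.61 and 5.55 at 40 h. Every RA well was below every vehicle well, and MKI67 fell by 0.70 ± 0.16 (adjusted p = 0.00681). Cyclin A2 (CCNA2), which acts in S phase and at entry to mitosis, fell by 0.62 (0.0144). CDK1, the kinase that starts mitosis, stood at 6.13, 6.35 and 6.64 with RA against 6.38 to 6.93 in vehicle at 16 h, overlapping, with a change of -0.21 ± 0.19 (adjusted p = 0.538).

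The count at 16 h depended on single wells. It was 31 without the fifth 16 h vehicle well, 1 without the first RA well, 6 without the second RA well and 10 without the fifth 40 h vehicle well, and with each array centred on the tested genes it was 25 (13 replication, 6 G1/S, 6 mitosis) against 5.37% of all genes. The 10 monocytic markers summed to 25256 to 26614 units at 16 h of RA against 13154 to 18586 in the 16 h vehicle wells, and the log2 ratio of the 3′ to the 5′ ACTB probe sets was 0.397 to 0.98 against 0.19 to 0.706. Their part in the result was not tested.

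No vehicle well was harvested at 2 h or 6 h. Hours in culture and RA therefore cannot be told apart at these times. At 2 h of RA limma called 0 of the 54 genes (0.864% of all genes in either direction). At an unadjusted p under 0.05 it had 8 genes, all higher, and 1 with each array centred on the tested genes. Of all 12503 genes, 2321 and 1022 passed that threshold in either direction. MCM2 at 2 h stood at 6.56 and 6.81, where the highest vehicle well was at 6.57, while the median of all genes was at 0.31. At 6 h CCNE2 (0.74 ± 0.22, adjusted p = 0.0325) and MCM7 (0.65 ± 0.21, 0.0445) rose, 2 of 54 against 8.21% of all genes, and 0 fell, against 0.176%. The median of the 54 genes at 6 h was 0.37, close to the 0.38 of all genes, and after centring neither rise was called. CDK6 was then the 1 gene that fell (-0.78, adjusted p = 0.00697), where the deposited scale gave -0.37 (0.278). The number of rises at 6 h was 11 without the first RA well, 6 without 16 h vehicle well 2, 1 without 16 h vehicle well 3 or 40 h vehicle well 6, and 0 without RA well 2, 16 h vehicle well 1 or 40 h vehicle well 4.

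By 40 h of RA in the time course (2 RA wells of set 2 against the 8 vehicle wells) the mitosis genes had the lowest class median, though few genes passed the test, and 40 h was not tested against 16 h. The class medians relative to all genes were -0.41 for replication, -0.49 for G1/S and -0.62 for mitosis, where the median of all genes was 0.15. On the deposited scale CENPA fell alone (-0.74 ± 0.21, adjusted p = 0.0275), 1 of 54 against 0.672% of all genes, and 0 rose, against 4.45%. CENPA stood at 3.22 and 3.11 with RA and at 3.78 to 4.08 in vehicle, without overlap. With centring on the tested genes 37 of 54 fell, 20 of 23 mitosis genes, 11 of 20 replication genes and 6 of 11 G1/S genes, against 4.82% of all genes, led by BUB1 (-0.70, adjusted p = 3.05e-05), a kinase of the spindle checkpoint, and MKI67 (-0.78, 3.65e-05). The count on the deposited scale was 0 without either RA well, 2 without 16 h vehicle well 1 and 3 without well 5.

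**Figure D2:**
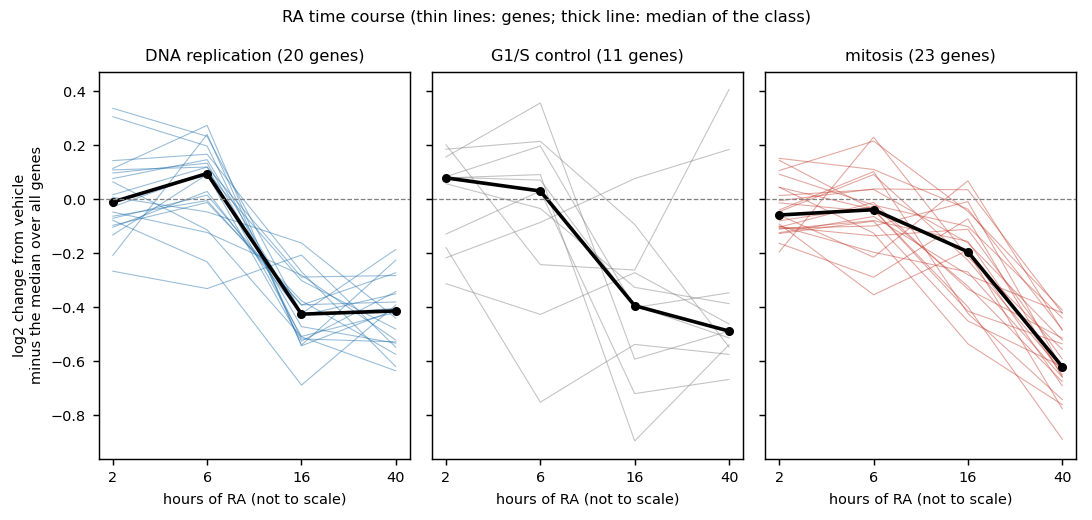
Log2 change from vehicle at 2, 6, 16 and 40 h of RA, less the median change of all genes at that time, for each gene (thin lines) and as the median of its class (thick line). The replication median was above 0 at 6 h and at -0.43 at 16 h, and the mitosis median went from -0.19 at 16 h to -0.62 at 40 h.

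In experiment 1, RA alone for 40 h lowered a few genes, most of them mitotic. Of 53 genes tested 5 fell and 0 rose, against 1.37% and 2.77% of the 12393 genes tested: 4 were mitosis genes and 1 was the helicase subunit CDC45. All 53 had a change below 0, and the class medians were -0.42 for mitosis, -0.25 for G1/S and -0.23 for replication, with all genes at 0.00. CENPA fell by 0.69 ± 0.21 (adjusted p = 0.0483), 1.61-fold, the mitotic kinase PLK1 by 0.56 ± 0.17 (0.0436), securin (PTTG1), which holds back chromatid separation, by 0.56 ± 0.16 (0.0331), the kinetochore protein CENPF by 0.52 ± 0.15 (0.0318), and CDC45 by 0.75 ± 0.22 (0.049). The fall of CDC45 was -1.10 in array set 1 and -0.31 in set 2.

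PTTG1 stood at 6.31, 6.02 and 5.90 in the RA wells of set 1 and at 6.56 and 6.84 in those of set 2. The vehicle wells gave 6.43, 7.01 and 6.57 in set 1 and 7.01, 7.19 and 7.26 in set 2, so within each set every RA well lay below every vehicle well, while the sets overlapped. PTTG1 wells with TNF (6.86, 6.68, 6.79, 6.95 and 7.10) overlapped vehicle, and those with both agents (6.97, 6.67, 6.65, 6.42 and 6.43) overlapped it in set 1 and lay below it in set 2. MKI67 stood at 4.76, 4.42 and 4.72 with RA in set 1 against 5.18, 4.89 and 4.78 in vehicle, and at 4.76 and 4.91 against 5.37, 5.61 and 5.55 in set 2. It too was lower in every RA well of its own set, with a change of -0.49 ± 0.16 that missed the threshold (adjusted p = 0.0814).

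With each array centred on the tested genes 14 fell, 12 of them mitosis genes, against 3.63% of all genes. They included AURKA, a kinase of the spindle poles (-0.51, adjusted p = 0.00115), the survivin gene BIRC5 (-0.51, 0.0152) and the cyclins CCNB1 and CCNB2. The count of 5 on the deposited scale was 0 without RA wells 2 or 4 or vehicle wells 4 or 6, 1 without RA well 3 or vehicle wells 2 or 5, and 2 without RA well 1.

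TNF alone changed 2 of the 53 genes. CDK4, the kinase of D-type cyclins, rose by 0.50 ± 0.14 (adjusted p = 0.0176) and CDC25C fell by 0.64 ± 0.21 (0.0466), against 6.69% of all genes that rose and 4.62% that fell. CDK4 stood at 6.47, 6.40 and 6.50 with TNF in set 1 against 5.98, 6.03 and 5.80 in vehicle, and at 6.63 and 6.68 against 6.03, 6.42 and 6.05 in set 2. Every TNF well was above every vehicle well of its set, and across sets only the highest vehicle well (6.42) passed a TNF well. Both other probe sets of CDC25C, 1 of them bright, had changes above 0 (0.42 and 0.07).

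The class medians under TNF were -0.07 for replication, 0.01 for G1/S and -0.20 for mitosis, with all genes at -0.01. Centring raised the falls to 6, against 9.17% of all genes. They were E2F8, AURKA, the mitotic kinesin KIF20A, CDC25C, CENPF and the thymidine kinase TK1. The rise of CDK4 was lost without the fifth TNF well. The 1 fall became 2 without vehicle wells 1 or 3 and 0 without vehicle wells 2, 4, 5 or 6 or TNF wells 1, 2 or 5.

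RA plus TNF lowered mitosis genes, mainly in array set 2, while replication genes lay on both sides of the median of all genes. Of 53 genes 11 fell, 10 mitosis genes and CDK6, and 2 rose, the ribonucleotide reductase subunit RRM2 and CCNE2, while 0 of 20 replication genes fell. Over all genes 7.42% fell and 11.7% rose. At an unadjusted p under 0.05 limma had 14 lower and 5 higher, where 3726 of all 12393 genes passed in either direction. The class medians were -0.38 for mitosis, 0.12 for G1/S and 0.01 for replication, with all genes at 0.05. In set 1 alone 1 mitosis gene fell, against 3.49% of all genes, and in set 2 alone 19 fell, against 6.53%.

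CENPF, a kinetochore protein that accumulates in late cycle, gave the clearest separation. Its vehicle wells stood at 5.10, 5.63 and 5.03 in set 1 and 5.80, 6.06 and 5.84 in set 2, and its RA plus TNF wells at 4.64, 4.60, 4.53, 4.73 and 4.78. All 5 treated wells were below all 6 vehicle wells. With RA alone (5.14, 4.70, 4.72, 5.06 and 5.45) and TNF alone (5.11, 5.03, 4.91, 5.64 and 5.45) the wells overlapped vehicle in set 1 and lay below it in set 2. CENPF was also called with RA alone. CENPF fell by 0.88 ± 0.15 (adjusted p = 1.58e-05), 1.84-fold.

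CDK6 stood at 7.37, 7.47 and 6.93 in the vehicle wells of set 1 and at 6.60, 6.49 and 6.35 in those of set 2. With RA plus TNF it stood at 6.80, 6.61 and 6.44 in set 1 and 5.05 and 5.53 in set 2, below every vehicle well of the same set, though the sets overlapped. Wells with RA alone (6.99, 6.88, 7.11, 5.36 and 6.27) and TNF alone (7.35, 7.01, 7.24, 6.31 and 6.10) overlapped vehicle in set 1 and lay below it in set 2. CDK6 fell by 0.89 ± 0.16 (adjusted p = 5.14e-05), 1.85-fold, and by 0.71 ± 0.17 against TNF alone (0.00377). Of its 6 other bright probe sets, 1 had a change above 0 (0.15) in the comparison with TNF alone.

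KIF20A, the kinesin of the central spindle, stood at 3.38, 4.42 and 3.70 in vehicle and 3.68, 3.02 and 3.45 with RA plus TNF in set 1, which overlapped. In set 2 it stood at 4.43, 4.72 and 4.60 against 2.92 and 3.27, far apart. Wells with RA alone (3.94, 3.25, 3.43, 3.91 and 3.89) and TNF alone (3.38, 3.40, 3.39, 4.12 and 3.75) overlapped vehicle in set 1 and lay below it in set 2. The fitted fall was 0.90 ± 0.20 (adjusted p = 0.000703), made of -0.45 in set 1 and -1.49 in set 2.

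TOP2A, the topoisomerase that untangles sister chromatids, stood at 6.88, 6.72 and 6.59 in vehicle and 6.71, 6.26 and 6.21 with RA plus TNF in set 1, and at 6.87, 7.05 and 7.22 against 5.61 and 6.29 in set 2. The treated wells were lower in set 2 and overlapped in set 1, and TOP2A fell by 0.69 ± 0.17 (adjusted p = 0.00224). The same held for the position of its wells with RA alone (6.69, 6.65, 6.76, 5.93 and 6.64) and TNF alone (6.69, 6.45, 6.54, 6.28 and 6.57), where it was not called. CENPE, the motor of the kinetochore, stood at 3.91, 4.36, 3.47, 4.43, 4.63 and 4.49 in vehicle and 3.69, 3.45, 3.39, 3.39 and 3.44 with RA plus TNF. Only vehicle well 3 reached into the treated range, and CENPE fell by 0.72 ± 0.18 (0.00268). Its RA wells (3.80, 3.34, 4.08, 3.60 and 4.12) overlapped those of vehicle in set 1 and lay below them in set 2.

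BUB1 stood at 4.12, 5.16, 4.38, 5.22, 5.48 and 5.31 in vehicle and 4.44, 4.02, 3.94, 4.10 and 4.49 with RA plus TNF, overlapping in set 1 and apart in set 2. Its wells with RA alone (4.26, 3.84, 4.42, 4.61 and 5.01) and TNF alone (4.62, 4.11, 4.53, 4.97 and 4.96) lay likewise. BUB1 fell by 0.69 ± 0.18 (adjusted p = 0.0039), but 3 of its 4 other probe sets, none of those 3 bright, had changes above 0, and the mean of its probe sets gave 0.10 (adjusted p = 0.884). AURKA stood at 5.58, 5.90, 5.24, 5.92, 6.25 and 6.22 in vehicle and 5.36, 5.27, 5.07, 5.18 and 5.34 with both agents. Only vehicle well 3 reached the treated range, and AURKA fell by 0.57 ± 0.15 (0.00603), with 1 of its 2 other probe sets at 0.54. Its wells with RA alone (5.28, 5.05, 4.92, 5.46 and 5.85) overlapped vehicle in set 1 and lay below it in set 2. Those with TNF alone (5.34, 5.12, 5.28, 6.01 and 5.58) overlapped vehicle in both sets.

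The other mitosis genes that fell were CDC20, the activator of the anaphase-promoting complex (-0.45, adjusted p = 0.0369), CCNB2 (-0.44, 0.0417), CDC25C (-0.60, 0.0448) and the spindle assembly factor TPX2 (-0.44, 0.0499). Both other probe sets of CDC25C were again above 0 (0.10 and 0.22), and 1 of CCNB2, which was dim. In the other direction RRM2 stood at 5.21, 6.16 and 5.20 in vehicle and 6.69, 6.46 and 6.37 with RA plus TNF in set 1, and at 6.49, 6.91 and 6.69 against 6.75 and 6.75 in set 2. The treated wells were higher in set 1 and within the vehicle range in set 2, and RRM2 rose by 0.57 ± 0.18 (0.0197), made of 0.98 and 0.05. RRM2 wells with RA alone (5.98, 5.54, 5.62, 6.12 and 6.73) and TNF alone (6.03, 5.65, 5.86, 6.80 and 6.76) overlapped vehicle. CCNE2 rose by 0.53 ± 0.19 (0.0484).

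MCM2 and PCNA, named whatever their values, did not pass. MCM2 stood at 6.05, 5.80 and 5.59 with both agents in set 1 against 5.17, 5.85 and 5.55 in vehicle, and at 6.17 and 5.99 against 6.13, 6.57 and 6.12 in set 2, with a change of 0.08 ± 0.16 (adjusted p = 0.783). PCNA was at 6.15, 5.63 and 5.46 against 4.88, 5.43 and 5.04 in set 1, and at 5.95 and 6.09 against 5.93, 6.42 and 6.04 in set 2 (0.31 ± 0.18, 0.258). The PCNA wells were higher with both agents in set 1 and overlapped in set 2. CDK1 changed by -0.06 ± 0.19 (0.867), with wells at 5.91, 5.32, 5.84, 6.20 and 6.19 against 5.22, 5.97, 5.31, 6.01, 6.88 and 6.86 in vehicle, and MKI67 by -0.19 ± 0.16 (0.454), with wells at 5.28, 4.99, 5.14, 4.79 and 4.83. With TNF alone the wells of these 4 genes overlapped vehicle in each set, and with RA alone so did those of PCNA and CDK1. The RA wells of MCM2 overlapped vehicle in set 1 and lay below it in set 2. Those of MKI67 lay below vehicle in both sets. RA wells stood at 5.72, 5.23, 5.38, 5.79 and 6.00 for MCM2, 5.19, 4.64, 5.64, 5.73 and 6.19 for PCNA, and 5.96, 5.33, 5.42, 6.03 and 6.61 for CDK1. TNF wells stood at 5.75, 5.46, 5.50, 6.55 and 6.30 for MCM2, 5.16, 4.71, 5.18, 6.29 and 5.97 for PCNA, 5.91, 5.11, 5.35, 6.55 and 6.60 for CDK1, and 5.11, 4.85, 4.95, 5.68 and 5.58 for MKI67.

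The 2 array sets differed in how far the genes came down. In set 1 alone 2 genes fell, against 3.49% of all genes, and the mitosis median was -0.08. In set 2 alone 22 fell, 19 of them mitosis genes and 2 replication genes, against 6.53% of all genes, and the mitosis median was -0.85. The difference between the sets was not tested. The monocytic markers summed to 23163 to 29005 units with RA plus TNF and 15187 to 19380 with TNF, and the lymphocyte markers to 406 to 542 and 456 to 621, and their part in the counts was not tested. With centring on the tested genes 17 fell, 15 of them mitosis genes, against 13.5% of all genes. The 11 falls became 7 without vehicle wells 2, 4, 5 or 6, or RA plus TNF wells 4 or 5, and 7 of the 11 genes kept their call whichever 1 well was left out. The 2 rises became 0 without vehicle wells 1 or 3 or treated wells 1 or 2, 1 without vehicle wells 4 or 6 or treated well 3, and 4 without vehicle well 2.

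**Figure D3:**
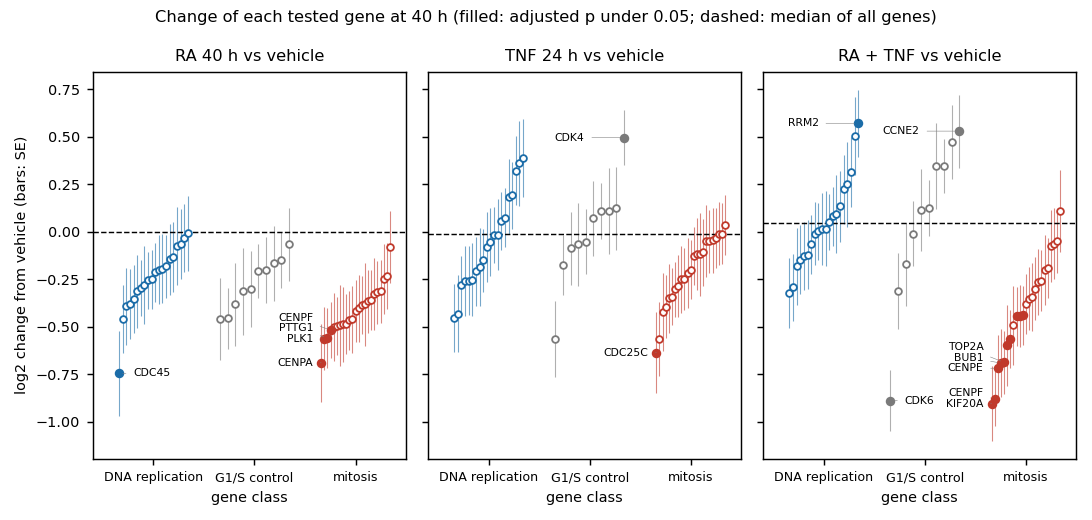
Log2 change from vehicle of each tested gene at 40 h under RA, TNF and RA plus TNF, with standard errors, sorted within each class; filled points passed an adjusted p under 0.05 and the dashed line is the median of all genes. Under RA plus TNF the mitosis genes lie mostly below the line (median -0.38) and the replication genes lie on both sides of it (median 0.01). The points are from both array sets in 1 fit, and in set 1 alone the mitosis median was -0.08.

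The classes can also be compared inside each array, where no scaling of the array enters. The mean of the 20 replication genes less the mean of the 23 mitosis genes has no meaning as a level, and only its differences between arrays are read here, without a test. In vehicle at 40 h it was -0.18, 0.09 and 0.07 in set 1 and between 0.02 and 0.07 in set 2. With RA plus TNF it was 0.40, 0.30 and 0.26 in set 1 and 0.64 and 0.66 in set 2, above every vehicle well in both sets. The sets reached this from different sides. In set 1 the replication mean was 5.03 ± 0.24 with RA plus TNF against 4.77 ± 0.37 in vehicle (SD, n = 3 each), and the mitosis mean 4.71 ± 0.17 against 4.78 ± 0.28. In set 2 the replication mean was 5.37 ± 0.07 (n = 2) against 5.61 ± 0.15 (n = 3), and the mitosis mean 4.72 ± 0.05 against 5.55 ± 0.15.

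RA alone gave 0.06 to 0.20 in set 1, which overlapped vehicle, and 0.20 and 0.29 in set 2. TNF alone gave -0.02 to 0.03 in set 1, within the vehicle range, and 0.38 and 0.40 in set 2, above it. After 16 h of RA the difference was -0.18, -0.14 and -0.06, below the 16 h vehicle wells (-0.03 to 0.18). It was 0.12 in both wells at 2 h and 0.16 and 0.18 at 6 h, inside the range of those vehicle wells.

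**Figure D4:**
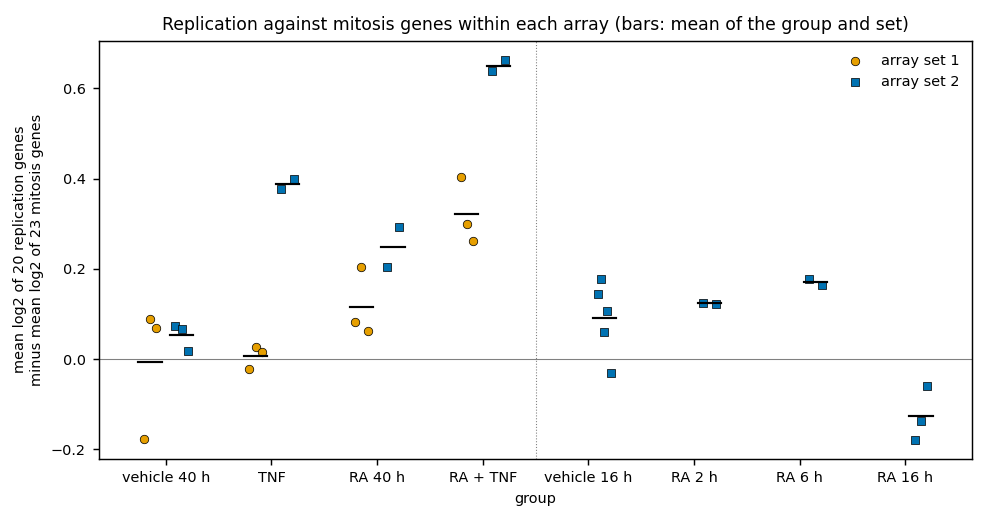
Mean log2 value of the 20 replication genes minus that of the 23 mitosis genes in each of the 33 arrays, by group and array set, with bars at the mean of each group and set. RA plus TNF arrays reach 0.26 to 0.66, all above the vehicle arrays at 40 h, and the 3 arrays at 16 h of RA lie below 0.

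Against TNF alone, RA plus TNF lowered 3 of the 53 genes, CDK6, CENPF (-0.58 ± 0.15, adjusted p = 0.0124) and CENPE (-0.61 ± 0.18, 0.0339), and raised 0, against 2.69% and 4.6% of all genes. At an unadjusted p under 0.05 limma had 6 lower and 3 higher, where 2262 of all 12393 genes passed in either direction. All 5 wells with both agents lay below all 5 TNF wells for CENPF and for CENPE, whose TNF wells stood at 3.86, 3.91, 4.06, 4.48 and 4.10. One bright probe set of CENPF was at 0.01. Centring gave 6 falls, against 5.86% of all genes, and 1 rise, CCNE2. A single rise also appeared without TNF well 4 or without well 4 with both agents.

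Against RA alone, adding TNF raised 5 of the 53 genes and lowered 0, against 7.63% and 4.55% of all genes. The rises were thus near the share of all genes, and no result for a class is read from them. Of the 5 genes, 2 were listed under replication and 3 under G1/S. In set 1 alone 5 rose and in set 2 alone 0, where 973 and 295 of the 12393 genes rose. Over both sets limma had 11 higher and 3 lower at an unadjusted p under 0.05, where 2939 of all 12393 genes passed in either direction. CDC45 rose by 1.00 ± 0.23 (adjusted p = 0.00249), 1.99-fold, from 2.54, 2.18, 1.66, 3.14 and 3.27 with RA to 3.69, 3.42, 3.21, 3.76 and 3.68 with both. Its highest RA well (3.27) passed the lowest well with both agents (3.21), and no other pair overlapped.

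CDK4 stood at 6.02, 5.62, 5.60, 5.82 and 6.12 with RA and at 6.72, 6.40, 6.45, 6.24 and 6.12 with both, and every well with both agents was above every RA well, though the closest pair was nearly level. CDK4 rose by 0.55 ± 0.15 (adjusted p = 0.00943), RRM2 by 0.60 (0.0253), cyclin E1 (CCNE1) by 0.64 (0.0335) and CCNE2 by 0.60 (0.0442). CCNE1 had a dim second probe set at -0.63. Centring gave 8 rises, against 9.89% of all genes, and 2 falls, CDK6 and CENPF. The 5 rises became 2 without RA wells 2, 3 or 4 or wells 1, 2 or 3 with both agents, and 3 without RA well 5, and 1 fall appeared without RA well 4 or the first well with both agents.

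The interaction, the effect of RA under TNF less its effect without TNF, was called by limma in 0 of 53 genes, against 0.428% of all genes in either direction. At an unadjusted p under 0.05 the interaction passed in 7 genes, all above 0, and in 910 of all 12393 genes in either direction. Its largest value among the genes was 0.68 ± 0.28 for CCNE2 (adjusted p = 0.515). For CENPF it was -0.06 ± 0.21 and for CDK6 -0.26 ± 0.23. The 3 comparisons with vehicle share the same 6 vehicle wells, and those with RA or TNF alone share the wells with both agents.

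**Figure D5:**
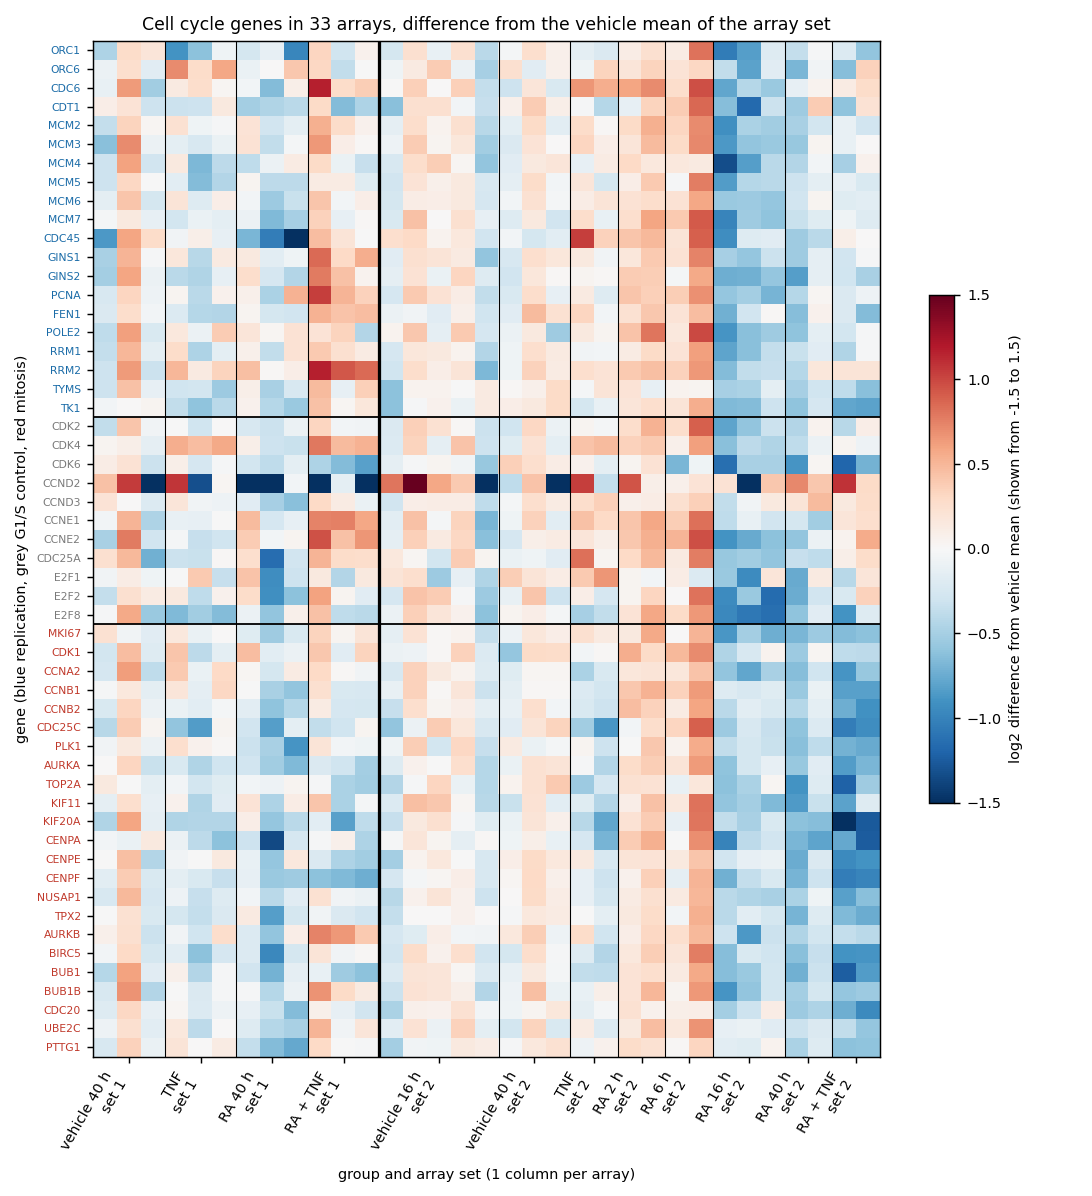
Log2 difference of each of the 54 genes (lines, by class) in each of the 33 arrays (columns, by group and array set) from the mean of the vehicle arrays of the same array set; blue is lower and red higher, and the colours stop at -1.5 and 1.5. Mitosis genes are blue in the RA plus TNF arrays of set 2, most genes are blue at 16 h of RA, and most genes are red at 2 h and 6 h, where the median of all genes was also raised.

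Other genes of the same machinery were counted from lists that did not hold the 54. At 16 h of RA 15 of 41 other replication genes and 15 of 46 other mitosis genes fell and 0 rose, where 4.66% of all genes fell, among them the ligase LIG1 (-0.97, adjusted p = 0.00108), the fork protein WDHD1 (-1.12, 0.00144) and the uracil glycosylase UNG (-0.88, 0.00241), and lamin B1 (LMNB1, -0.88, 0.00541), STMN1 (-0.74, 0.00592) and the kinase MELK (-0.79, 0.00887). Of 14 other cycle control genes, not all of them G1/S genes, MYBL2, SKP2 and WEE1, a kinase that restrains entry to mitosis, fell there. Among the same 14, cyclin A1 (CCNA1) fell by 1.35 (0.000515) and cyclin D1 (CCND1) rose by 1.28 (0.0121) with RA plus TNF. With RA plus TNF, where 7.42% of all genes fell and 11.7% rose, 13 of 46 other mitosis genes fell (2 in set 1 alone and 24 in set 2 alone), led by the kinetochore protein NUF2 (-1.06, 8.22e-06), ASPM (-0.80, 0.000668) and the checkpoint kinase TTK (-0.66, 0.00146). Of 41 other replication genes 3 rose, the clamp loader RFC2 (0.86, 0.00025), the fork protein TIPIN (0.69, 0.00155) and the DNA polymerase alpha subunit POLA2 (0.72, 0.00856), and 1 fell, ORC2 (-0.70, 0.0356), both smaller shares than those of all genes. At 6 h of RA 8 of 41 other replication genes rose, RFC3, RFC2 and PRIM1 first, against 8.21% of all genes, and 0 did under centring or quantile normalization.

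Of the inhibitors and pocket proteins that restrain the cycle, 8 of 10 were tested. CDKN1A, which encodes the CDK inhibitor p21, rose by 1.42 ± 0.25 at 6 h of RA (adjusted p = 0.000295), by 0.64 ± 0.17 at 40 h (0.0256) and by 1.14 ± 0.17 with RA plus TNF (4.21e-06). It did not pass at 2 h (0.63 ± 0.25, 0.222), at 16 h (0.55 ± 0.21, 0.119) or with TNF (0.20 ± 0.17, 0.553). The median of all genes was 0.31 at 2 h, 0.38 at 6 h and -0.17 at 16 h. Relative to it the 6 h rise was 1.04, and no vehicle well was harvested at 2 h or 6 h. RB1, the retinoblastoma gene, rose by 0.64 ± 0.18 with RA plus TNF (0.00867). RBL2, the pocket protein p130, fell by 0.66 ± 0.22 when TNF was added to RA (0.0405). The probe set taken for CDKN2A read lower at 6 h (-2.59 ± 0.72, 0.023) on the values of 2 RA wells, a call that quantile normalization removed. Whether this probe set measured transcript of CDKN2A was not tested. CDKN1B, the p27 gene, did not pass in any comparison.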

How the data were processed

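RNA of 33 wells was measured on 33 arrays. Values were deposited by the authors on a log2 scale with the array median at 0, as found from the values themselves. Signals came from GCOS, per the submitters' processing notes, with its version not given in the sources used here. Adding back each array's lowest value gave steps of 0.1 units and a trimmed mean of 150 on every array. Of 54675 probe sets, 41091 had 1 symbol, 1801 several and 11721 none, and 62 were controls. The brightest probe set stood for each of 19775 genes, and genes whose mean ratio to the array median was under the median over all probe sets (0.882 in experiment 1, 0.891 in the time course) were left out; probe sets above it are called bright.

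limma 3.58.1 (R 4.3.3; lmFit, then eBayes with a trend) was fitted to the 21 arrays of experiment 1 with array set as a term (12393 genes, 16 residual degrees of freedom), and to 17 arrays of set 2 for the time course (12503 genes, 12), against 8 vehicle arrays, 5 at 16 h and 3 at 40 h. The RA arrays and the vehicle arrays at 40 h of set 2 enter both fits, so the 40 h results of RA in these fits are not separate evidence. The fit was tested on simulated data. The wells are separate cultures of 1 line, so p-values measure the spread between wells. Precision is limited by how many arrays each group has.

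The members and lists were chosen with earlier results of these data known. Values in every array of experiment 1, and of the time course where a result there turns on them, are given for the 10 genes with the smallest adjusted p against vehicle at 40 h and for MKI67, MCM2, PCNA, CCND2, CDK1 and TOP2A. Statistics are given for up to 12 called genes a comparison and 3 of each other list by adjusted p. Genes named outside that rule (E2F8, MCM4, CENPA and CDC45 by array, genes called only after centring, and ORC2) were chosen after their values were seen. Alternatives were quantile normalization, the GCOS scale, centring on the tested genes, an offset of 32 units, no filter, the mean of all probe sets, each array set alone, no array set term, a replicate block, vehicle arrays of 1 time alone, and leaving out each array. Start windows are from RefSeq.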

Additional observations from a re-analysis of the deposited data

Results flagged for a closer look

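Of 95 groups of 4 to 10 arrays examined, 4 held 1 array far from the rest, where chance gives about 1 in 20. The replication mean less the mitosis mean was -0.177 in the first vehicle well at 40 h, where the other 5 lay between 0.019 and 0.09. CDK6 stood at 5.665 in the fifth vehicle well at 16 h, against 6.106 to 6.282 in the others. TOP2A stood at 5.933 in the fourth RA well at 40 h, against 6.636 to 6.765 in the others. CENPE stood at 3.694 in the first well with RA plus TNF, against 3.389 to 3.449 in the others.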

How the results depend on the processing

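Counts are of genes called by limma, and where they moved the cause was not tested. Counts over all genes mostly moved with these settings as well. Under quantile normalization, the GCOS scale, centring on the tested genes and the offset, the falls with RA at 40 h (5) were 19, 17, 14 and 13, with TNF (1) 11, 9, 6 and 6, and at 40 h of the time course (1) 41, 36, 37 and 17. With RA plus TNF the falls (11) were 21, 20 and 17 under the first 3, and against TNF alone (3) they were 9, 5 and 6. Over all genes these were 1887, 1898 and 1670 (919), and 767, 753 and 726 (333). The falls at 16 h (19) were 30 under quantile normalization, and those of all genes (583) were 819. Against RA alone the falls (0) were 5, 4, 2 and 2 under the 4 scalings, and the rises (5) were 8 under quantile normalization and centring. Against TNF alone 1 gene rose under each of the 4. At 6 h 1 gene fell under the first 3 and the rises (2) were 0 under all 4. The rises with RA plus TNF (2) were 1 under quantile normalization. With no filter the falls were 1 with RA, 0 with TNF and 7 with RA plus TNF, and the rises were 1 with RA plus TNF and 1 at 6 h. With the mean of all probe sets the falls were 2 with RA, 6 with RA plus TNF, 1 against TNF alone and 12 at 16 h, and the rises were 1 against TNF alone, 1 at 6 h and 1 at 40 h of the time course. That mean also turned BUB1 with RA plus TNF to 0.10. Without the array set term the falls were 0 with RA, 0 with TNF, 4 with RA plus TNF and 0 against TNF alone, and the rises were 0 with TNF, with RA plus TNF and against RA alone. In set 1 alone the falls were 0 with RA, 0 with TNF, 2 with RA plus TNF and 0 against TNF alone, and the rises 0 with TNF and 2 against TNF alone. In set 2 alone the falls were 3 with RA, 22 with RA plus TNF, 6 against TNF alone and 1 against RA alone, and the rises 2 with TNF and 0 with RA plus TNF and against RA alone. With only the 16 h vehicle arrays the falls were 8 at 16 h and 0 at 40 h, and the rises at 6 h were 0. With the replicate block the falls were 0 with RA, 0 with TNF, 7 with RA plus TNF, 11 at 16 h and 0 at 40 h of the time course, and the rises were 1 with RA plus TNF and 0 at 6 h. Same-numbered wells deviated little together (r from -0.098 to 0.079 over 30 pairs in experiment 1, and from -0.101 to 0.116 over 19 in the time course, 4 of them over 0.1). In a group of 2 wells the deviations mirror each other, so some of these pairs repeat the same value. Only wells with the same number in their titles were compared, so a pairing of other wells was not tested. Leaving out 1 array gave 0 to 7 falls with RA, 0 to 2 falls and 0 to 1 rises with TNF, 7 to 11 falls and 0 to 4 rises with RA plus TNF, 2 to 3 falls and 0 to 1 rises against TNF alone, 0 to 1 falls and 2 to 7 rises against RA alone, 0 to 11 rises at 6 h, 1 to 31 falls at 16 h and 0 to 3 falls at 40 h of the time course. The interaction and the 2 h comparison had 0 calls under all of these. Of 478 values of single genes, 327 kept direction and call, 150 lost the call and 1 reversed.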
